A study of Mus musculus with 8 samples.

Results

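The mast cell, basophil and eosinophil genes described here are a list of 33 gene symbols, 24 of mast cells and basophils and 9 of eosinophils, matched to the array's probe sets by gene symbol. Of these 33 genes, 29 were measured among the 19938 gene symbols of the array: 23 of the 24 mast cell and basophil genes and 6 of the 9 eosinophil genes. No probe set matched Il1rl1, Ear1, Ear2 or Ear10, which were not analysed here. The cells were mouse cells of strain C57BL/6 that carried 1 of 4 constructs, each with 2 arrays numbered 1 and 2: the deletion mutant delFG2 of NUP98-HOXA9, the deletion mutant delFG1, full-length NUP98-HOXA9, or empty vector. NUP98-HOXA9 is a leukaemia fusion of the nucleoporin NUP98 with the homeodomain factor HOXA9, and the study asked which genes its NUP98 portion regulates. The sources used here state neither the cell type nor the residues removed in each mutant. They do not say whether arrays of 1 group came from separate cultures, so the p-values rest on a spread that may be technical only.

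Mast cells and basophils carry the high-affinity IgE receptor on their surface and store histamine, proteases and proteoglycan in granules that are released when antigen crosslinks receptor-bound IgE. Eosinophils store a different set of toxic granule proteins, among them major basic protein, eosinophil peroxidase and eosinophil-associated ribonucleases. The granule cells arise from myeloid progenitors in the bone marrow under GATA factors.

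The signal of the listed genes spanned most of the range of the arrays. Measured as log2(intensity + 1), 20 of the 29 genes averaged above the median of all values on the arrays, 6.37, and 9 averaged below it. Above the median were the IgE receptor chains, carboxypeptidase A3, the basophil proteases Mcpt8 and Prss34, the histamine enzyme Hdc, Gata2 and the eosinophil granule genes Prg2, Prg3, Epx and Ear6. Below it lay the mast cell chymases Mcpt1, Mcpt2, Mcpt4 and Cma1, the tryptase Tpsab1, the cytokines Il4 and Il13, and the eosinophil receptors Ccr3 and Il5ra. Another mast cell tryptase, Tpsb2, averaged 6.49, just above the median. Probe sets differ in how strongly they respond, so these positions describe the probes' signal and do not rank the RNA of 1 gene against another. As bulk RNA was measured, fewer cells of a type and less RNA per cell cannot be told apart.

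The median intensity of the 8 arrays ranged from 80.7 to 83.2. The 2 arrays of a group correlated at r = 0.995 to 0.996 over all 28853 probe sets of the arrays, and arrays of different groups reached r = 0.999. Arrays with the same number moved together across groups, so the differences below come from a fit with the number as a replicate block, with the count of calls without the block beside each group of genes. A gene passed where its adjusted p, over all 21789 probe sets tested, was under 0.05, and the words higher, lower, rose and fell are used of genes that passed with the block. Without the block, 0 of the 29 genes passed in any of the 6 comparisons between groups.

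Promoters of 6 genes are printed here because these genes carry the comparisons that follow: Fcer1a, Gzmb, Cpa3 and Ear6 were lower with the full-length fusion whichever array was left out, and Ms4a2 and Slc18a2 were the 2 genes that were higher. Each sequence runs 5′ to 3′ on the gene's strand, from 250 bases before to 50 bases after the start site, from RefSeq on build GRCm38.p6. Capitals mark matches, on either strand, to a GATA motif (AGATAA or TGATAA), an E-box (CACGTG or CATGTG), a PU.1 core (GAGGAA) or a HOX-PBX motif (TGATTTA). The marked matches of a promoter do not overlap each other.
Fcer1a, chr1:173227180-173227479, minus strand: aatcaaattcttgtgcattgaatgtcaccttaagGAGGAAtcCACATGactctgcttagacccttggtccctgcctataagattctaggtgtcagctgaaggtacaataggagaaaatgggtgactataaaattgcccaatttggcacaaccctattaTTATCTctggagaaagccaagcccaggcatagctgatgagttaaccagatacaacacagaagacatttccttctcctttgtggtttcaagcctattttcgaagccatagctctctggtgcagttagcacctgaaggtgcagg
Gzmb, chr14:56262285-56262584, minus strand: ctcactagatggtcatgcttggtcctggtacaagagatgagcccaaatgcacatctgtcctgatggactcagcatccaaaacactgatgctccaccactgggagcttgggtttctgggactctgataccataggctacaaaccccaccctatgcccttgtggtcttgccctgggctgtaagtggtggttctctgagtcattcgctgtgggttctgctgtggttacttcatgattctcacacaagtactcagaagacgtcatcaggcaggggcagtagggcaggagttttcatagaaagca
Cpa3, chr3:20242132-20242431, minus strand: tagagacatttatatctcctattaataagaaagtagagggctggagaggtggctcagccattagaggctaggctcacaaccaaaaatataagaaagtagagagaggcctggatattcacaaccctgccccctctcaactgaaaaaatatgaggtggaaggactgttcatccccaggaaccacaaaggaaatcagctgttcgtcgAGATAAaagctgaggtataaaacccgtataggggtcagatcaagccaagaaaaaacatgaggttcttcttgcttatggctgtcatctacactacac
Ear6, chr14:51853518-51853817, plus strand: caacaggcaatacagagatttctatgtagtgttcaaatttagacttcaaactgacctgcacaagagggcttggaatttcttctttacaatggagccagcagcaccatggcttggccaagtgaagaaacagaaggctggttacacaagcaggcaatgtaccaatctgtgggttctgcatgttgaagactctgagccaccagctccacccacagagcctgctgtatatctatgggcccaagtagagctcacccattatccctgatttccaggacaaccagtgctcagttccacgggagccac
Ms4a2, chr19:11623670-11623969, minus strand: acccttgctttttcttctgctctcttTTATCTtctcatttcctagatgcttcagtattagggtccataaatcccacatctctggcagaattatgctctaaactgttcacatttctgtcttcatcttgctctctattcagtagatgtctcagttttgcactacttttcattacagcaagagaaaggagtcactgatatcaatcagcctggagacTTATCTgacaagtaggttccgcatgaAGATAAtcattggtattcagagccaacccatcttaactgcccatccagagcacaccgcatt
Slc18a2, chr19:59260628-59260927, plus strand: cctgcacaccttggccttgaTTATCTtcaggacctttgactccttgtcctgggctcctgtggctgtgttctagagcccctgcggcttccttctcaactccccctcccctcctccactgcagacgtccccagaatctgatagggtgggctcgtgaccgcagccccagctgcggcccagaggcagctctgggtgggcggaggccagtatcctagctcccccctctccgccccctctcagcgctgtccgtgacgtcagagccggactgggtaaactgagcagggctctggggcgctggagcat
The Fcer1a window held 1 GATA match, 1 E-box match and 1 PU.1 match. Ms4a2, the gene of the receptor's beta chain, held 3 GATA matches, and Cpa3 and Slc18a2 held 1 each. No match to these letters lay in the windows of Gzmb and Ear6. Over the 24 measured genes with a promoter entry, taking the first listed start site, the GATA motif was found in 12, the E-box in 4, the PU.1 core in 7 and the HOX-PBX motif in 1. Among all 32851 promoters of 300 bases in the table, 18.6% held the GATA motif, 20.4% the E-box, 28.3% the PU.1 core and 2.97% the HOX-PBX motif. Of the 11 genes lower with the full-length fusion 9 had an entry and 4 of these held a GATA match, and both higher genes held one. These are matches of letters in a window and say nothing of binding.

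**Figure D1:**
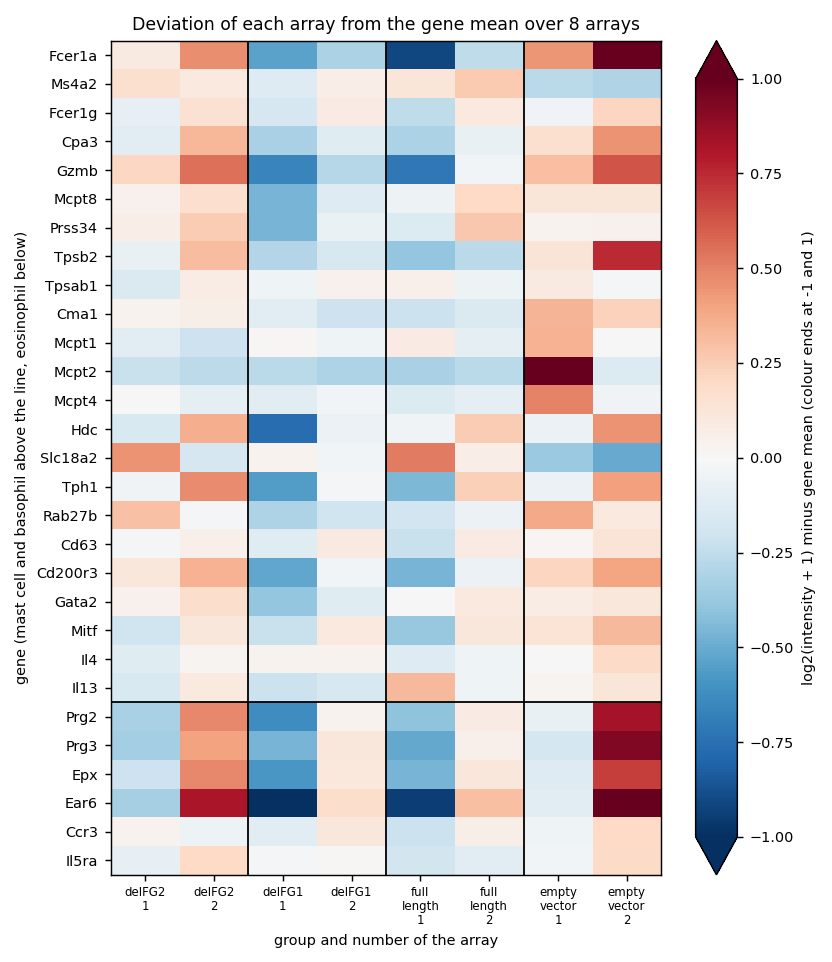
Each of the 29 genes on 8 arrays, as log2(intensity + 1) minus that gene's mean over the 8 arrays, with delFG2, delFG1, full-length NUP98-HOXA9 and empty vector from left to right and each array's number below; eosinophil genes lie below the line. Fcer1a, Gzmb and Cpa3 average lowest in the delFG1 and full-length columns, and the eosinophil granule genes are higher on the array numbered 2 of each group.

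With full-length NUP98-HOXA9, 11 of the 29 genes were lower and 2 were higher than with empty vector. The lower genes were Fcer1a, Ear6, Gzmb, Tpsb2, Prg3, Cd200r3, Prg2, Cpa3, Cma1, Epx and Mitf, and the higher ones were Slc18a2 and Ms4a2. Among all probe sets tested, 4.43% were lower and 2.18% higher in this comparison. The difference was negative for 25 of the 29 genes, with a median of -0.28 on the log2 scale against 0.02 over all probe sets. Without the block, 0.124% of all probe sets passed, and at an unadjusted p under 0.05 there were 11 of the 29 genes and 9.54% of all probe sets. The smallest adjusted p of a listed gene without the block was 0.0785, for Cma1.

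With delFG1, 14 of the 29 genes were lower than with empty vector and none was higher, against 4.18% lower and 1.94% higher of all probe sets. They were Fcer1a, Ear6, Gzmb, Prg2, Tpsb2, Hdc, Cd200r3, Prg3, Cpa3, Epx, Tph1, Cma1, Mcpt8 and Gata2. The difference was negative for 27 genes, and the median was -0.42 against 0.02 over all probe sets. Without the block, 0.129% of all probe sets passed, and the unadjusted p was under 0.05 for 12 of the 29 genes and 9.61% of all probe sets.

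With delFG2, none of the 29 genes passed against empty vector in either direction with the block, where 0.106% of all probe sets were higher and 0.399% lower. At an unadjusted p under 0.05 with the block there were 14 of the 29 genes, 12 below empty vector and 2 above it, against 10.8% of all probe sets. The median difference was -0.10 against 0.01 over all probe sets, with a negative sign for 24 genes. Without the block, 0.00459% of all probe sets passed, and 5 of the 29 genes had an unadjusted p under 0.05, as did 4.43% of all probe sets. The 3 comparisons with empty vector share its 2 arrays, so their values are given side by side and not as repeats of one another.

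**Figure D2:**
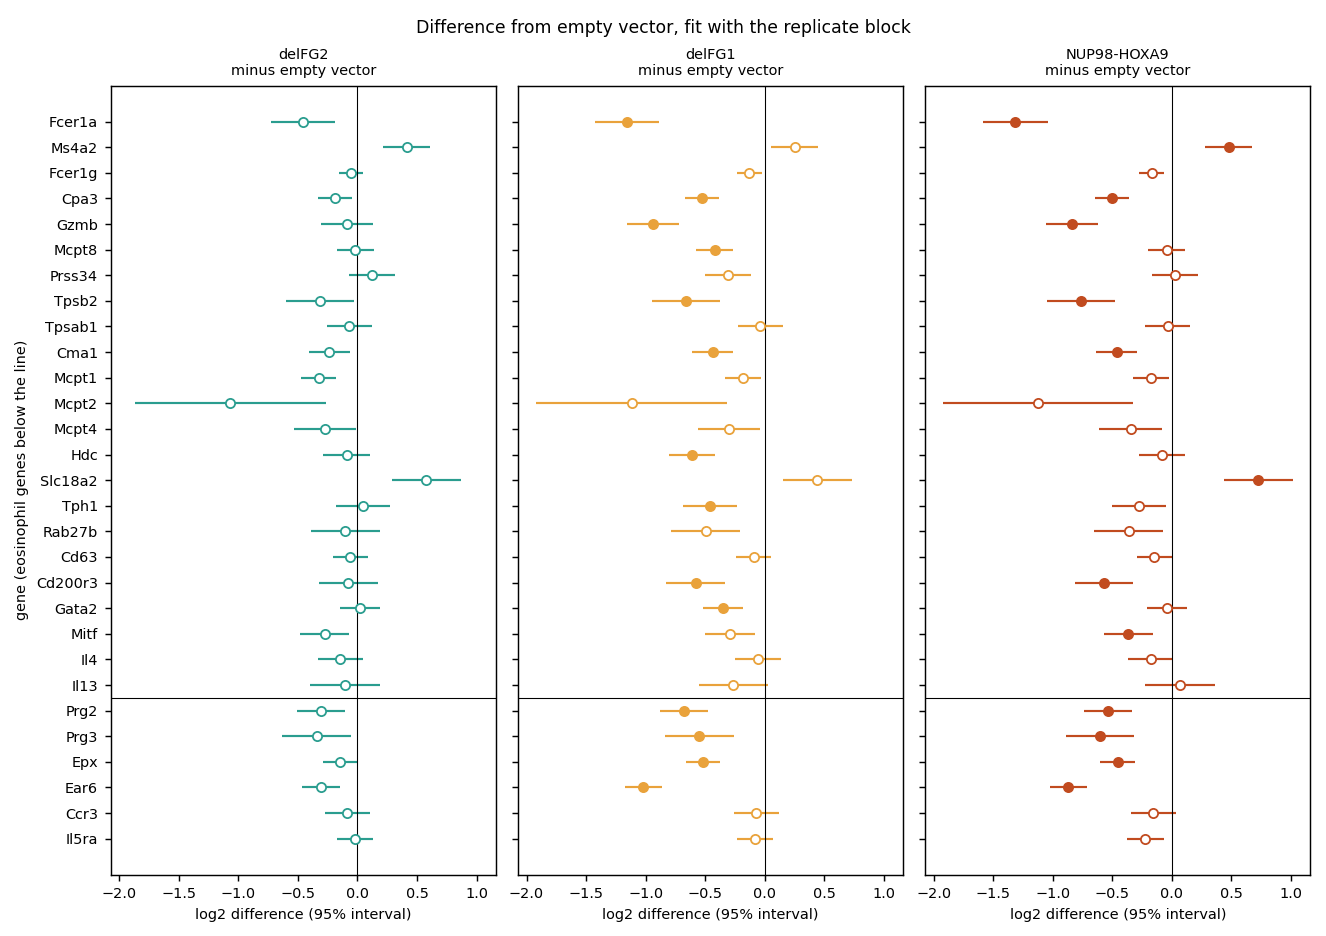
Log2 differences of the 29 genes from empty vector for delFG2, delFG1 and full-length NUP98-HOXA9, from the fit with the replicate block; bars are 95% intervals, filled points have an adjusted p under 0.05, open points do not, and eosinophil genes lie below the line. Filled points number 0 with delFG2, 14 with delFG1 and 13 with the full-length fusion, and Slc18a2 and Ms4a2 are the 2 filled points to the right of 0.

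The 3 chains of the IgE receptor differed from each other in these comparisons. Fcer1a, the chain that binds IgE, had log2 intensities of 7.41 and 7.79 with delFG2, 6.79 and 7.01 with delFG1, 6.41 and 7.07 with full-length fusion, and 7.77 and 8.35 with empty vector. All 4 arrays of delFG1 and the full-length fusion lay below both empty vector arrays, and the delFG2 arrays overlapped those of empty vector. Full-length minus empty vector was -1.31 (SE 0.123, adjusted p 0.000172 with the block and 0.137 without), a 2.49-fold lower intensity, and delFG1 minus empty vector was -1.16 (adjusted p 0.000358 with the block). For delFG2 the difference from empty vector was -0.46, with a 95% interval of -0.73 to -0.19 and an adjusted p of 0.15.

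Ms4a2, the signal-amplifying beta chain, showed 9.66 and 9.59 with delFG2, 9.37 and 9.56 with delFG1, 9.62 and 9.76 with full-length fusion, and 9.23 and 9.20 with empty vector. Every array of a fusion lay above both empty vector arrays. Its full-length difference from empty vector was 0.48 (SE 0.0887, adjusted p 0.00931), and those of delFG2 (0.41, adjusted p 0.08) and delFG1 (0.25, adjusted p 0.148) did not pass. Fcer1g, the signalling gamma chain that other Fc receptors share, had 12.58 and 12.82 with delFG2, 12.50 and 12.75 with delFG1, 12.41 and 12.76 with full-length fusion, and 12.63 and 12.88 with empty vector. Its groups overlapped, and its full-length difference of -0.17 did not pass (adjusted p 0.0604).

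Of the granule proteases, Gzmb and Cpa3 were lower with both delFG1 and the full-length fusion. Gzmb, a serine protease of cytotoxic granules that mast cells also make, had 9.55 and 9.89 with delFG2, 8.68 and 9.06 with delFG1, 8.63 and 9.31 with full-length fusion, and 9.65 and 9.97 with empty vector. The delFG2 values interleaved with those of empty vector, while the other 4 lay below all of them. Gzmb differed from empty vector by -0.84 with the full-length fusion (SE 0.099, adjusted p 0.000654), by -0.94 with delFG1 (adjusted p 0.000345) and by -0.09 with delFG2 (95% interval -0.31 to 0.13).

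Cpa3, carboxypeptidase A3 of mast cell granules, had 11.49 and 11.92 with delFG2, 11.27 and 11.48 with delFG1, 11.28 and 11.52 with full-length fusion, and 11.75 and 12.04 with empty vector. The delFG1 and full-length arrays lay below both empty vector arrays. The differences from empty vector were -0.50 with the full-length fusion (adjusted p 0.00107), -0.52 with delFG1 (adjusted p 0.000772) and -0.19 with delFG2 (adjusted p 0.282).

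Tpsb2, a mast cell tryptase, had 6.42 and 6.81 with delFG2, 6.20 and 6.33 with delFG1, 6.11 and 6.22 with full-length fusion, and 6.62 and 7.24 with empty vector. Cma1, a chymase, had 5.53 and 5.56 with delFG2, 5.39 and 5.29 with delFG1, 5.28 and 5.35 with full-length fusion, and 5.84 and 5.72 with empty vector. For both genes, the full-length and delFG1 arrays lay below both empty vector arrays, although Cma1 stayed below the median of the arrays throughout. The full-length differences were -0.76 for Tpsb2 (adjusted p 0.00546) and -0.46 for Cma1 (adjusted p 0.0053), and the delFG1 differences were -0.66 (adjusted p 0.0121) and -0.44 (adjusted p 0.007). Tpsab1, a closely related tryptase, lay between 5.13 and 5.36 on all arrays and differed by -0.04 with the full-length fusion, which did not pass. Tryptase and chymase genes belong to families of related genes, so signal of 1 gene may reach the probes of another.

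Mcpt8, the serine protease that marks mouse basophils, had 12.48 and 12.61 with delFG2, 11.97 and 12.31 with delFG1, 12.39 and 12.64 with full-length fusion, and 12.56 and 12.56 with empty vector. Both delFG1 arrays lay below all the others, and the delFG2 and full-length values lay on both sides of those of empty vector. Its difference from empty vector was -0.42 with delFG1 (adjusted p 0.00466), -0.02 with delFG2 and -0.04 with the full-length fusion (adjusted p 0.835). Prss34, the other basophil protease, had 11.77 and 11.96 with delFG2, 11.24 and 11.63 with delFG1, 11.57 and 11.97 with full-length fusion, and 11.74 and 11.74 with empty vector. The delFG1 arrays lay below those of empty vector, by a difference of -0.31 that did not pass (adjusted p 0.0721).

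Mcpt1, Mcpt2 and Mcpt4, proteases of mature mast cells, were set apart by 1 array. Mcpt2 had 4.73 and 4.69 with delFG2, 4.68 and 4.64 with delFG1, 4.63 and 4.68 with full-length fusion, and 6.74 and 4.81 with empty vector. The value of 6.74 came from empty vector array 1, which was also highest for Mcpt4 at 5.52, against 4.89 to 5.02 on the other arrays. Mcpt1 was highest there too, with 4.64 and 4.53 with delFG2, 4.76 and 4.70 with delFG1, 4.82 and 4.65 with full-length fusion, and 5.09 and 4.74 with empty vector. For Mcpt2 the full-length difference from empty vector was -2.12 on the arrays numbered 1 and -0.13 on the pair numbered 2, and the difference over both did not pass (adjusted p 0.104 with the block). Kit, the stem cell factor receptor of mast cells and progenitors, had 9.24 and 9.06 with delFG2, 9.27 and 9.08 with delFG1, 9.25 and 8.94 with full-length fusion, and 9.58 and 8.87 with empty vector. It was highest on that array too, but the array numbered 1 was the higher one in every group (number 2 minus number 1 was -0.35, adjusted p 0.0263 with the block). Fcer1a, Gzmb and Cpa3 were higher on empty vector array 2 than on array 1. Without empty vector array 2, which leaves array 1 to stand for its group, Mcpt2 passed in all 3 comparisons with empty vector even without the block.

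**Figure D3:**
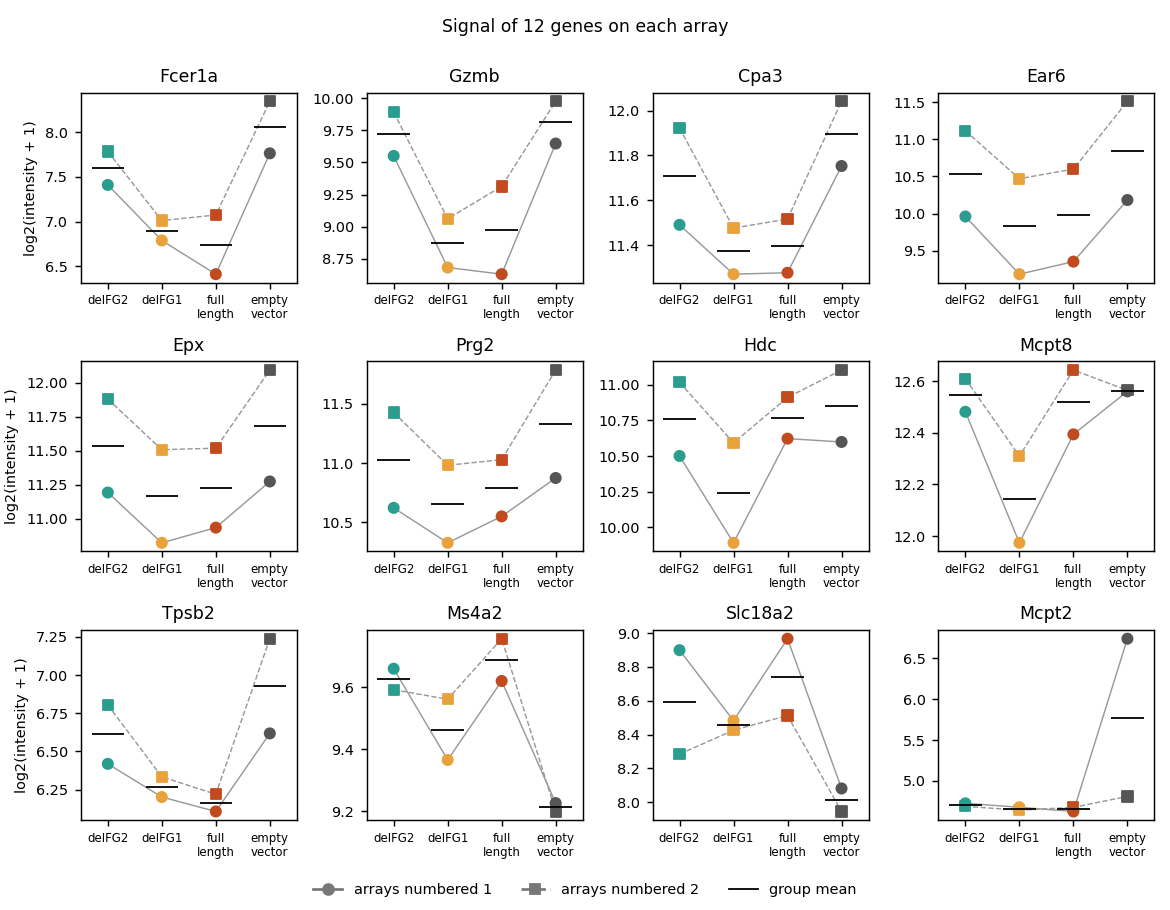
Log2(intensity + 1) of selected genes on each array by group, with delFG2 at the left and empty vector at the right; circles are arrays numbered 1, squares arrays numbered 2, short bars group means, and lines join the arrays of the same number. The Fcer1a, Gzmb and Ear6 lines dip at delFG1 and the full-length fusion, whereas Slc18a2 and Ms4a2 are lowest with empty vector.

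The genes for amine mediators did not move together. Hdc, histidine decarboxylase, which makes histamine, had 10.50 and 11.02 with delFG2, 9.89 and 10.59 with delFG1, 10.62 and 10.91 with full-length fusion, and 10.60 and 11.10 with empty vector. The delFG1 arrays were the lowest of their number in both pairs. Hdc differed from empty vector by -0.61 with delFG1 (adjusted p 0.002), by -0.09 with delFG2 and by -0.08 with the full-length fusion (adjusted p 0.722), and delFG1 minus full-length was -0.53 and did not pass (adjusted p 0.075).

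Tph1, tryptophan hydroxylase of serotonin synthesis, had 7.51 and 8.02 with delFG2, 6.98 and 7.52 with delFG1, 7.09 and 7.77 with full-length fusion, and 7.48 and 7.95 with empty vector. It was lower with delFG1 (-0.46, adjusted p 0.0234), and the full-length difference of -0.28 did not pass (adjusted p 0.157). Slc18a2, the vesicle transporter that loads amines into granules, ran the other way, with 8.90 and 8.28 with delFG2, 8.48 and 8.43 with delFG1, 8.97 and 8.51 with full-length fusion, and 8.08 and 7.95 with empty vector. All 6 arrays of a fusion lay above both empty vector arrays. The difference was 0.73 with the full-length fusion (SE 0.131, adjusted p 0.00786), while 0.58 with delFG2 (adjusted p 0.0954) and 0.44 with delFG1 (adjusted p 0.0849) did not pass.

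Among the surface and secretion genes, Cd200r3, an activating receptor of basophils and mast cells, had 7.41 and 7.65 with delFG2, 6.78 and 7.27 with delFG1, 6.83 and 7.23 with full-length fusion, and 7.51 and 7.69 with empty vector. The delFG1 and full-length values lay below those of the other 2 groups. The differences from empty vector were -0.57 with the full-length fusion (adjusted p 0.0119) and -0.58 with delFG1 (adjusted p 0.0106). Rab27b, a small GTPase of granule release, differed from empty vector by -0.36 with the full-length fusion (adjusted p 0.152) and -0.49 with delFG1 (adjusted p 0.0518), and neither passed. Cd63, a granule tetraspanin that reaches the surface on degranulation, had 11.38 and 11.45 with delFG2, 11.28 and 11.49 with delFG1, 11.18 and 11.48 with full-length fusion, and 11.42 and 11.53 with empty vector, and its groups overlapped.

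Gata2, the transcription factor that keeps the mast cell and basophil programme, had 10.29 and 10.43 with delFG2, 9.86 and 10.13 with delFG1, 10.25 and 10.35 with full-length fusion, and 10.32 and 10.36 with empty vector. Both delFG1 arrays lay below all the others. The delFG1 difference from empty vector was -0.35 (adjusted p 0.0203), against 0.02 with delFG2 and -0.04 with the full-length fusion. Mitf, which drives mast cell granule genes, had 8.74 and 9.04 with delFG2, 8.71 and 9.03 with delFG1, 8.56 and 9.05 with full-length fusion, and 9.07 and 9.26 with empty vector. Its full-length difference of -0.37 passed (adjusted p 0.0434), that of delFG1 (-0.29, adjusted p 0.111) did not, and a second, dimmer Mitf probe set differed by -0.01 (adjusted p 0.946). The cytokines Il4 and Il13 stayed between 5.68 and 6.45 and did not pass in any comparison.

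The eosinophil granule genes were lower with both delFG1 and the full-length fusion, and also differed by the number of the array. Ear6, an eosinophil-associated ribonuclease, had 9.96 and 11.11 with delFG2, 9.19 and 10.47 with delFG1, 9.36 and 10.60 with full-length fusion, and 10.18 and 11.51 with empty vector. The array numbered 2 was higher in every group, so the groups overlapped when all arrays were pooled, but within each number the delFG1 and full-length arrays were the lowest. Full-length minus empty vector was -0.83 for number 1 and -0.91 for number 2, and -0.87 over both (SE 0.0714, adjusted p 8.64e-05 with the block and 0.731 without). With delFG1 it was -1.02 (adjusted p 3.1e-05), and with delFG2 -0.31, with a 95% interval of -0.47 to -0.15 and an adjusted p of 0.1. The ribonuclease genes of this family are near-identical to each other, so the Ear6 probes may also take signal from other members.

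Epx, eosinophil peroxidase, had 11.19 and 11.88 with delFG2, 10.82 and 11.51 with delFG1, 10.93 and 11.52 with full-length fusion, and 11.27 and 12.09 with empty vector. Prg2, major basic protein, had 10.62 and 11.43 with delFG2, 10.33 and 10.98 with delFG1, 10.55 and 11.03 with full-length fusion, and 10.87 and 11.79 with empty vector. Prg3, its homologue, had 7.75 and 8.49 with delFG2, 7.63 and 8.21 with delFG1, 7.57 and 8.14 with full-length fusion, and 7.91 and 9.01 with empty vector. In all 3 genes, empty vector was highest among the arrays of either number, but the groups overlapped when all arrays were pooled. Without the block the adjusted p of full-length minus empty vector was 0.754 for Epx, 0.708 for Prg2 and 0.691 for Prg3. The full-length differences were -0.46 for Epx (adjusted p 0.0021), -0.54 for Prg2 (adjusted p 0.0054) and -0.61 for Prg3 (adjusted p 0.019), and those of delFG1 were -0.52 (adjusted p 0.000898), -0.68 (adjusted p 0.00135) and -0.55 (adjusted p 0.0316). For Prg3 the full-length difference was -0.34 on the arrays numbered 1 and -0.87 on the pair numbered 2.

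The eosinophil receptors, whose probe sets lay below the median of the arrays, did not pass in any comparison. Ccr3, the eotaxin receptor, had 5.17 and 5.09 with delFG2, 5.03 and 5.25 with delFG1, 4.92 and 5.19 with full-length fusion, and 5.09 and 5.34 with empty vector. Il5ra, the interleukin-5 receptor chain, had 4.88 and 5.16 with delFG2, 4.94 and 4.97 with delFG1, 4.78 and 4.85 with full-length fusion, and 4.93 and 5.15 with empty vector. The groups overlapped for Ccr3, and for Il5ra the full-length arrays lay below those of empty vector by less than the fit could call (adjusted p 0.0929).

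The mutants were then set against each other and against the full-length fusion. With delFG2, 3 of the 29 genes were higher than with the full-length fusion and none lower, against 0.298% higher and 0.17% lower of all probe sets. They were Fcer1a, by 0.86 (adjusted p 0.012), Gzmb, by 0.75 (adjusted p 0.00831), and Ear6, by 0.56 (adjusted p 0.00665), each in both pairs of arrays. The positive sign held for 23 genes, with a median of 0.09 against -0.01 over all probe sets. Cpa3 (0.31, adjusted p 0.0881), Epx (0.31, adjusted p 0.0927) and Cd200r3 (0.49, adjusted p 0.118) did not pass. Without the block, 0.0275% of all probe sets passed, and 4 of the 29 genes had an unadjusted p under 0.05, as did 2.76% of all probe sets.

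With delFG2, 6 of the 29 genes were higher than with delFG1 and none lower, against 0.404% higher and 0.133% lower of all probe sets. Gzmb was higher by 0.85 (adjusted p 0.00841), Ear6 by 0.71 (adjusted p 0.00404), Fcer1a by 0.70 (adjusted p 0.0375), Hdc by 0.52 (adjusted p 0.0343), Mcpt8 by 0.40 (adjusted p 0.0375) and Epx by 0.37 (adjusted p 0.0375). The median was 0.20 against -0.01 over all probe sets, with a positive sign for 25 genes. Tph1 (0.51, adjusted p 0.0662), Prss34 (0.43, adjusted p 0.0705), Gata2 (0.37, adjusted p 0.0716) and Cpa3 (0.33, adjusted p 0.0552) did not pass. Without the block, 0.0% of all probe sets passed, and 8 of the 29 genes had an unadjusted p under 0.05, as did 3.13% of all probe sets.

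Between delFG1 and the full-length fusion no listed gene passed, where 0.0229% of all probe sets were higher and 0.0551% lower with the block. At an unadjusted p under 0.05 with the block there were 6 of the 29 genes, all below the full-length value, against 4.07% of all probe sets. Hdc (-0.53, 95% interval -0.73 to -0.32, adjusted p 0.075), Mcpt8 (-0.38, adjusted p 0.149), Prss34 (-0.33, adjusted p 0.54) and Gata2 (-0.31, adjusted p 0.477) were all below the full-length value without passing. The median over the 29 genes was -0.01 against 0.00 over all probe sets. Without the block, 0.00918% of all probe sets passed, and 3 of the 29 genes had an unadjusted p under 0.05, as did 2.07% of all probe sets. So Hdc, Mcpt8 and Gata2 passed against empty vector with delFG1 and not with the full-length fusion, but their difference between these 2 groups did not itself pass.

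**Figure D4:**
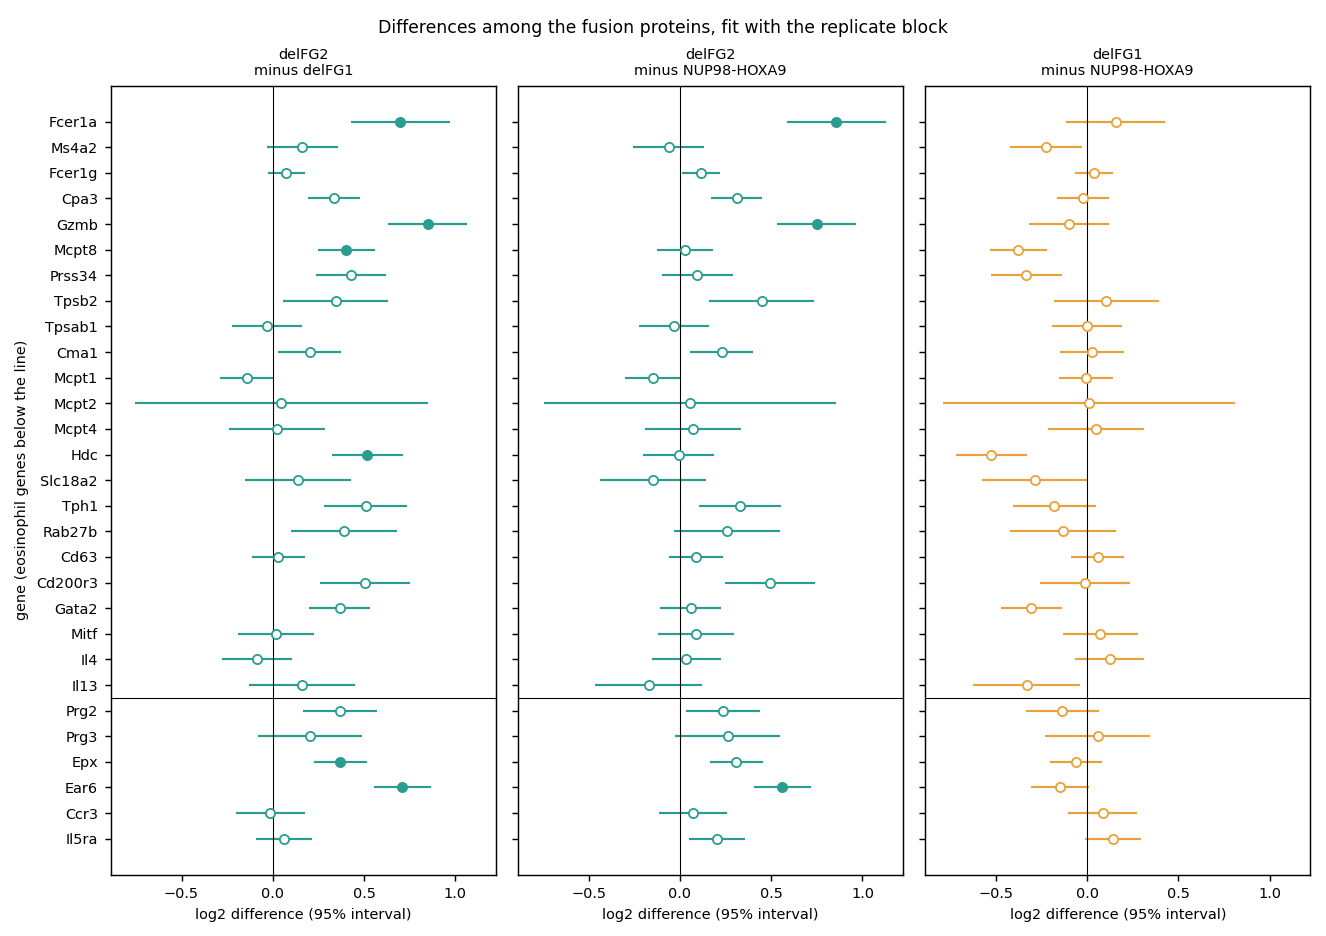
Log2 differences of the 29 genes among the fusion proteins, delFG2 minus delFG1, delFG2 minus full-length NUP98-HOXA9 and delFG1 minus full-length NUP98-HOXA9, from the fit with the replicate block; bars are 95% intervals, filled points have an adjusted p under 0.05, and open points do not. Filled points number 6, 3 and 0, all to the right of 0.

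How firmly these calls stand differed by gene. In the fit with the block, Fcer1a, Gzmb, Cpa3 and Ear6 passed against empty vector with the full-length fusion and with delFG1 whichever of the 8 arrays was left out, and with delFG1 so did Epx, Prg2 and Hdc. With the full-length fusion, Epx, Prg2 and Tpsb2 no longer passed without full-length array 2, Ms4a2 and Slc18a2 no longer passed when either full-length array was left out, and Mitf passed in 1 of the 8 fits. Cd200r3 and Prg3 passed in 5 of the 8 and Cma1 in 6. With delFG1, Prg3 passed in 1, Gata2 in 3, Tph1 in 5, and Tpsb2, Cd200r3 and Cma1 in 6 of the 8, and Mcpt8 no longer passed without delFG1 array 1. Fewer of the listed genes passed with the full-length fusion without full-length array 2, and so did fewer of all probe sets. The same held with delFG1 when either delFG1 array was left out. Without empty vector array 2, more of the listed genes and more of all probe sets passed in each comparison with empty vector. With delFG2 the genes that then passed were Mcpt1, Mcpt2, Mcpt4 and Slc18a2. These shifts were therefore not particular to the listed genes.

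The calls between mutants rested on more of the arrays. Against the full-length fusion, Fcer1a and Ear6 no longer passed once any of the 4 arrays compared was left out, and Gzmb no longer passed when full-length array 1 or either delFG2 array was left out. Between delFG2 and delFG1 the calls among the 29 genes were all lost when delFG1 array 1 or either delFG2 array was left out. After quantile normalization 2 of the 6, Gzmb and Ear6, still passed. With either empty vector array left out, more of the 29 genes passed in every comparison among the fusion proteins, and so did more of all probe sets.

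The number of the array went with differences in 16 of the 29 genes. The sources used here do not say what the number stands for. Of the 29 genes, 15 were higher on arrays numbered 2 and 1 was lower, against 6.43% higher and 4.75% lower of all probe sets. Ear6 was higher by 1.25 (adjusted p 1.65e-06), Prg3 by 0.75 (adjusted p 0.000734), Prg2 by 0.71 (adjusted p 0.000151) and Epx by 0.69 (adjusted p 2.38e-05). All 4 eosinophil granule genes were therefore among them, and Ccr3 and Il5ra were not. Mast cell and basophil genes followed with smaller differences, led by Tph1 (0.55, adjusted p 0.00106), Hdc (0.50, adjusted p 0.000751), Fcer1a (0.46, adjusted p 0.00699) and Gzmb (0.43, adjusted p 0.00308). Cd200r3, Mitf, Cpa3, Fcer1g, Prss34, Mcpt8 and Cd63 were higher by 0.17 to 0.33. Mcpt1 was lower (-0.17, adjusted p 0.0427), and Slc18a2 (-0.32, adjusted p 0.0532) did not pass. Mcpt8 and Cd63 no longer passed after median centring of the arrays. With any array of a fusion left out, fewer of the 29 genes and fewer of all probe sets passed between the numbers. Cd200r3, Cd63, Mcpt8 and Prss34 no longer passed in any of these fits. Mcpt1, Mitf and Fcer1a no longer passed with some arrays left out.

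**Figure D5:**
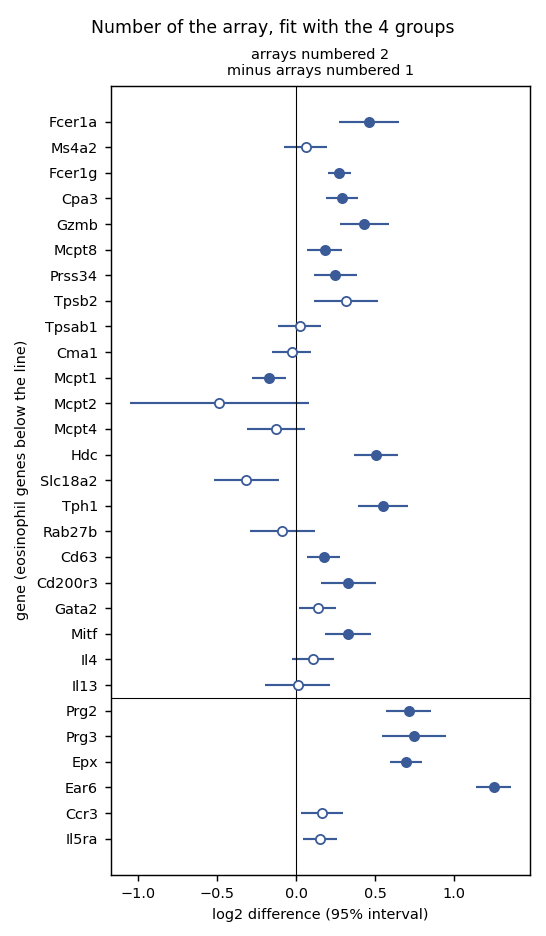
Log2 differences of the 29 genes between arrays numbered 2 and arrays numbered 1, adjusted for group; bars are 95% intervals, filled points have an adjusted p under 0.05, and open points do not. The 4 eosinophil granule genes lie between 0.69 and 1.25.

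Genes that work with the listed ones moved in part, in the fit with the block. Without it, 0 genes of the 5 lists that follow passed in any comparison between groups. For the full-length fusion against empty vector, the unadjusted p without the block was under 0.05 for 5 of 16 IgE receptor signalling genes, 7 of 21 lipid mediator and granule genes, 7 of 22 transcription factors, 7 of 17 receptors and 9 of 24 surface and protease genes. The same cut took in 9.54% of all probe sets. Beside the counts with the block stand shares over all probe sets of 4.43% lower and 2.18% higher with the full-length fusion, 4.18% lower and 1.94% higher with delFG1, and 0.399% lower and 0.106% higher with delFG2. Of 16 genes of IgE receptor signalling, 3 were lower and none higher with the full-length fusion than with empty vector: the kinase Syk (-0.41, adjusted p 0.0107), the adaptor Gab2 (-0.37, adjusted p 0.014) and the adaptor Lcp2 (-0.22, adjusted p 0.0496). The exchange factor Vav1 (-0.23, adjusted p 0.067) did not pass. With delFG1 3 of the 16 were lower, and with delFG2 none passed. Of 21 genes of lipid mediators and granule machinery, 8 were lower with the full-length fusion and none higher, among them the tetraspanin Cd9 (-0.69, adjusted p 0.000858), the granule trafficking gene Lyst (-0.62, adjusted p 0.00351), the prostaglandin D synthase Hpgds (-0.68, adjusted p 0.00429) and the syntaxin Stx3 (-0.51, adjusted p 0.0106). Hpgds was also the 1 gene of the 21 that was lower with delFG2 (-0.73, adjusted p 0.0307), and with delFG1 8 were lower and 1 higher.

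Of 22 transcription factors of these lineages, 5 were lower and 2 higher with the full-length fusion. Notch2 (-0.50, adjusted p 0.00218), the inhibitor of differentiation Id2 (-0.45, adjusted p 0.00226) and Stat6 (-0.28, adjusted p 0.0202), which transmits interleukin-4 signals, were lower, and the repressor Gfi1 was higher (0.81, adjusted p 0.00313). With delFG1 4 were lower and 1 higher, and Gfi1 was the 1 that was higher with delFG2 (0.80, adjusted p 0.0307). Of 17 growth factor and cytokine receptors, 6 were lower and 1 higher with the full-length fusion: the chemokine receptors Cxcr2 (-1.09, adjusted p 0.000481) and Ccr1 (-0.72, adjusted p 0.00167) and Tgfbr1 (-0.46, adjusted p 0.0223) were lower and Ccr2 was higher (1.10, adjusted p 0.00201). With delFG1 5 were lower and 1 higher, and with delFG2 none passed. Of 24 further surface and protease genes, 7 were lower and 1 higher with the full-length fusion, with Cd69 higher (0.77, adjusted p 0.000287) and the receptor Cd200r4 (-0.84, adjusted p 0.00183), the aspartic protease Ctse (-0.91, adjusted p 0.0026) and the inhibitory receptor Lilrb4a (-0.32, adjusted p 0.0033) lower. With delFG1 9 of these were lower and 1 higher, and with delFG2 Cd69 was higher (0.67, adjusted p 0.0101).

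Markers of other cell types moved in the same comparisons, against the same shares over all probe sets with the block. Some genes stand both in these lists and in those above: Cxcr2 and Ctsg (neutrophil), Ccr2 (monocyte) and Kit (stem and progenitor). A call of such a gene is counted in both places, so the lists are not separate observations. Without the block, Ppbp passed with the full-length fusion (adjusted p 0.0203) and Ppbp and Rhag passed with delFG1 (adjusted p 0.0187 and 0.0318), and 0 other markers passed in any comparison between groups. At an unadjusted p under 0.05 without the block, the full-length fusion had 7 of 20 neutrophil, 9 of 16 monocyte, 8 of 10 megakaryocyte and erythroid, 4 of 13 lymphoid and 5 of 11 stem and progenitor markers. The share of all probe sets under this cut was 9.54%. With the block and the full-length fusion, 10 of 20 neutrophil markers were lower and 1 higher, led by Olfm4 (-1.50, adjusted p 6.96e-05), and 8 of 16 monocyte and macrophage markers were lower and 1 higher, led by Mrc1 (-1.15, adjusted p 0.000214). Of 10 megakaryocyte and erythroid markers 6 were lower and 1 higher, led by Ppbp (-1.63, adjusted p 0.000101), and of 13 lymphoid markers 1 was lower (Il7r, -1.01, adjusted p 0.000858) and 1 higher. Of 11 stem and progenitor markers 3 were higher and none lower, led by Cd34 (0.86, adjusted p 0.000189). With delFG1, 8 neutrophil markers were lower and 2 higher, 9 monocyte markers were lower and 1 higher, and 6 megakaryocyte and erythroid markers were lower and none higher. Of the other lists, 1 lymphoid marker was lower and 1 higher with delFG1, and 1 stem and progenitor marker, Cd34, was higher (0.61, adjusted p 0.00117).

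With delFG2 and the block, the neutrophil, megakaryocyte and erythroid, lymphoid and stem cell lists had no gene that passed against empty vector, and 2 monocyte markers were lower. With delFG2, 6 of the 20 neutrophil markers were higher than with the full-length fusion and 5 higher than with delFG1. Of the 10 megakaryocyte and erythroid markers, delFG2 had 2 above the full-length fusion (Ppbp and Rhag) and 3 above delFG1 (Pf4, Ppbp and Rhag). Of the monocyte markers, Mrc1 passed above the full-length fusion and Cd68 above delFG1. The stem cell markers Cd34 and Meis1 were lower in delFG2 cells, and Meis1 also in delFG1 cells, when set against full-length NUP98-HOXA9. The shares over all probe sets in these comparisons are those given with the 29 genes above. On arrays numbered 2, 14 of the 20 neutrophil markers were higher and 1 lower, 7 of the 16 monocyte markers were higher, and 5 of the 11 stem and progenitor markers were lower. Over all probe sets, 6.43% were higher and 4.75% lower on arrays numbered 2.

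The summed intensity of the 29 genes was 32213 to 40471 with delFG2, 25603 to 33285 with delFG1, 28643 to 36605 with full-length fusion, and 34039 to 42900 with empty vector. For the neutrophil markers it was 87334 to 97590 with delFG2, 74817 to 90182 with delFG1, 74322 to 89470 with full-length fusion, and 87916 to 100416 with empty vector. For the monocyte markers it was 20650 to 25091 with delFG2, 18965 to 21701 with delFG1, 19217 to 21775 with full-length fusion, and 23805 to 29321 with empty vector. Among arrays of the same number, all 3 sums were lowest with delFG1 or the full-length fusion and highest with empty vector. When both numbers were pooled, the range of delFG2 overlapped that of empty vector in all 3 sums. The range of the full-length fusion did so for the 29 genes and the neutrophil markers, and that of delFG1 for the neutrophil markers.

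For the megakaryocyte and erythroid markers the sum was 2832 to 3362 with delFG2, 2035 to 2080 with delFG1, 2130 to 2489 with full-length fusion, and 3191 to 3227 with empty vector. For the stem and progenitor markers it was 3676 to 4065 with delFG2, 3989 to 4574 with delFG1, 4206 to 5014 with full-length fusion, and 3479 to 4193 with empty vector. For the lymphoid markers it was 6774 to 7565 with delFG2, 6045 to 6741 with delFG1, 6711 to 7286 with full-length fusion, and 5864 to 6795 with empty vector. Averages below the median of the arrays were found for 9 of 13 lymphoid markers, 4 of 16 monocyte markers, 3 of 11 stem and progenitor markers, 1 of 10 megakaryocyte and erythroid markers and 0 of 20 neutrophil markers. The part of these cell types in the differences of the 29 genes was not tested.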

How the data were processed

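Total RNA of 8 samples was biotin-labelled with a GeneChip kit, per the labels, and hybridised to arrays. The deposited intensity values were used as given: 1 linear value per probe set and array. The sources used here do not state how the authors made them. From 28853 probe sets, the 21789 with 1 gene symbol in the platform annotation were tested (1621 had several and 5443 none), and of several probe sets of a gene the one with the highest mean was shown. Values were taken as log2(intensity + 1), so a fold understates the change of dim genes. The test was limma's moderated test with an intensity trend (limma 3.58.1, R 4.3.3) on all 8 arrays, with Benjamini-Hochberg adjustment over all tested probe sets and a threshold of 0.05. Tables were made with Python 3.11.15.

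The labels give every group the numbers 1 and 2. After each group's mean was taken off, arrays that carry the same number correlated at r = 0.401 to 0.640 in all 6 pairs of groups. A second fit therefore had the number as a replicate block. The fit without the block was the main test, with 4 residual degrees of freedom, and the second fit had 3. The calls above come from the second fit, a choice that rests on this correlation. Arrays carry no counts, and 2 arrays a group limit the precision. The genes, the related lists and the marker lists were chosen with earlier results of these data known. All measured members were named. Array values were given for those that passed in any comparison or define a lineage, and also for Mcpt2 and Kit. Of each related list, up to 4 genes with the smallest p between full-length NUP98-HOXA9 and empty vector with the block were named. Of each marker list the first such gene was named. Further markers named were Rhag, Pf4, Cd68 and Meis1, which passed without the block or among the fusion proteins. Motif choice followed the known regulators of these lineages. Alternatives were median centring, quantile normalization, a pseudocount of 16, a log2 filter of 6, no trend, only the arrays compared, and each array left out.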

Additional observations from a re-analysis of the deposited data

How the results depend on the processing

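The replicate block moved every count except that of delFG2 against empty vector and of delFG1 against the full-length fusion among the 29 genes, which stayed at 0. Over all probe sets the block gave 1440 calls for full-length minus empty vector (27 without), 1333 for delFG1 minus empty vector (28 without), 110 for delFG2 minus empty vector (1 without), 17 for delFG1 minus full-length (2 without), 102 for delFG2 minus full-length (6 without) and 117 for delFG2 minus delFG1 (0 without). Among the 29 genes it gave 13, 14, 0, 0, 3 and 6 in the same order. Without the intensity trend and without the block, 5 probe sets passed for delFG1 minus empty vector, 0 for delFG2 minus empty vector and 3 for delFG2 minus full-length; from only the 4 arrays compared, 2 passed for delFG2 minus empty vector and 1 for delFG1 minus full-length. Quantile normalization with the block gave 56 probe sets for delFG2 minus empty vector and 2 of the 29 genes (Gzmb and Ear6) for delFG2 minus delFG1. Leaving out each array in turn, without the block, gave 7 to 36, 0 to 34, 0 to 2, 1 to 4, 1 to 7 and 0 to 4 probe sets in the same order, and 0 to 1 of the 29 genes in each comparison with empty vector. With the block, it gave 385 to 2378, 487 to 2272, 2 to 1065, 5 to 44, 17 to 324 and 1 to 313 probe sets, and 5 to 16, 9 to 19, 0 to 4, 0 to 3, 0 to 5 and 0 to 12 of the 29 genes. The number contrast gave 2435 probe sets, or 1054 to 2878 with an array left out, and 16 of the 29 genes, or 9 to 16. A left-out array leaves 1 in its group, which is assumed to vary like the others. In 3 fits a gene value reversed, all without the block and with 1 array left out: Prg3 in delFG1 minus empty vector, -0.55 on all arrays, ranged from -1.10 to 0.00157 (without empty vector array 2), and Ear6 in delFG2 minus full-length, 0.56 on all arrays, was -0.0609 without full-length array 1, -0.0153 without delFG2 array 2 and 1.18 at most. With 1 array left out, the groups compared hold unequal shares of the numbers 1 and 2. The cause of the other changes was not tested. Median centring with the block left 13, 15, 0, 0, 3 and 6 of the 29 genes. Quantile normalization with the block, median centring with the block in the comparisons between groups, and the left-out arrays of the number contrast were chosen after seeing the data. With 2 arrays a group, no array could be tested as far from its group, and dim genes (Mcpt1, Mcpt2, Mcpt4, Tpsab1, Ccr3 and Il5ra) have the least signal over background.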
